A study of Mus musculus with 4 samples.

Results

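The circadian clock and PAR bZIP genes are the transcription factors and repressors that drive daily rhythms of gene expression and their first outputs. They were taken as the 10 rows of the deposited expression table named Ciart, Nr1d1, Nr1d2, Dbp, Tef, Per1, Per2, Per3, Arntl and Bhlhe41, out of 24497 gene rows. These genes were chosen by name with the Tet2 KO against WT values of the same libraries already known, so their own differences are given as a description, without a test. In mouse leukaemia cells lacking Tet2, 9 of the 10 genes stood higher in both libraries than in either WT library, and Bhlhe41 stood lower in both. Of all genes tested, 62.4% stood higher and 24.4% lower in the same way. Ciart differed most, at 35.8 ± 0.12 TPM in Tet2 KO and 4.5 ± 0.0849 TPM in WT (SD, n = 2 each).

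The libraries came from cultured acute myeloid leukaemia cells carrying NRAS and AE9a, a truncated AML1-ETO fusion protein. The Tet2 KO cells were established from bone marrow haematopoietic stem cells of Tet2-/- mice, whose Tet2 gene lacks exon 3, and the WT cells from those of wild-type mice. Both carried the same oncogenes and grew in RPMI 1640 containing 50 ng/ml SCF, 10 ng/ml of each of the interleukins IL-3 and IL-6, and the selection drugs puromycin (2 µg/ml) and G418 (1 mg/ml). There were 2 libraries per genotype, and the labels name neither the number of mice, clones or cultures behind them nor a harvest time. Spread and p-values therefore measure only how far these libraries lie apart, which may be technical, and without a labelled time the values give no information on rhythm or phase.

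Expression was deposited as TPM, the share of all transcript molecules that a gene takes on a fixed total, which are scaled for transcript length and can be compared between genes. TPM keep no read number, so the depth behind each value is unknown. Tet2 itself stood at 16.98 and 16.95 TPM in Tet2 KO cells, against 16.62 and 16.98 TPM in WT, a gene-level value that does not separate exon 3. Its log2(TPM + 1) difference was 0.01 on this scale (limma adjusted p = 0.868). With the libraries rescaled to the median of all genes it was -0.22 (limma adjusted p = 0.00935). All 14 myeloid leukaemia markers were at 10 TPM or more in every library, and all 5 B cell, 7 T and NK cell, and 7 stromal and endothelial markers were below 1 TPM. Erythroid markers summed to 3.81 to 3.83 TPM in Tet2 KO and 1.99 to 3.3 TPM in WT. Megakaryocyte markers summed to 148.1 to 155.3 TPM in Tet2 KO and 41.4 to 44.5 TPM in WT, with 3 of 6 below 1 TPM and none at 0 in every library. The myeloid markers summed to 11340 to 11500 TPM in Tet2 KO and 23900 to 23930 TPM in WT. Lyz2 took most of this sum, with means of 7613 TPM in Tet2 KO and 19230 TPM in WT. Ptprc, Mpo, Csf3r, Cebpa, Kit and Cd34 had higher means in Tet2 KO, and the other myeloid markers lower ones. The part of either list in the clock gene values was not tested. In bulk RNA, fewer cells that express a gene and less RNA per cell cannot be told apart.

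In the mammalian clock, CLOCK and BMAL1 (the product of Arntl) bind E-boxes and activate the Per and Cry genes, whose proteins return to repress them. A second loop runs through the nuclear receptors REV-ERB alpha and beta (Nr1d1 and Nr1d2), which repress Arntl, and the ROR receptors, which activate it. The PAR bZIP factors DBP, TEF and HLF carry rhythms to output genes through D-boxes, which the repressor NFIL3 also binds. The loop is known to run in many peripheral cells, blood cells included.

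All 10 genes reached 1 TPM in every library, so none entered the fit through 1 genotype alone. Of the 11452 genes tested with limma across the whole table, 54.4% were called higher in Tet2 KO and 19.5% lower at an adjusted p under 0.05. Of the 10 clock and PAR bZIP genes 9 were called higher and 1 lower. This count is fixed in part by their choice, as are their calls under every other setting given below. Nothing is read from any of these calls. Both Tet2 KO libraries lay above both WT libraries for 62.4% of all genes tested and below both for 24.4%. The deposited scale carries a general shift, with a median log2 difference of 0.23 over all genes tested. Rescaling the libraries by their median ratio removed it, and then 33.3% of genes were called higher and 34.4% lower. The median over the 10 genes was 0.77 on the deposited scale and 0.57 after rescaling. On the rescaled libraries 7 of the 10 genes were higher and 1 lower, and Per2 and Arntl were not called. Per2 and Arntl also lost their calls without Tet2 KO replicate 2, WT replicate 1 or WT replicate 2. Both kept their calls without Tet2 KO replicate 1. With quantile normalization 7 of the 10 were called, beside 7656 of the 11452 genes tested. Per1, at a log2 difference of 0.20, was then not called, nor were Per2 and Arntl.

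**Figure D1:**
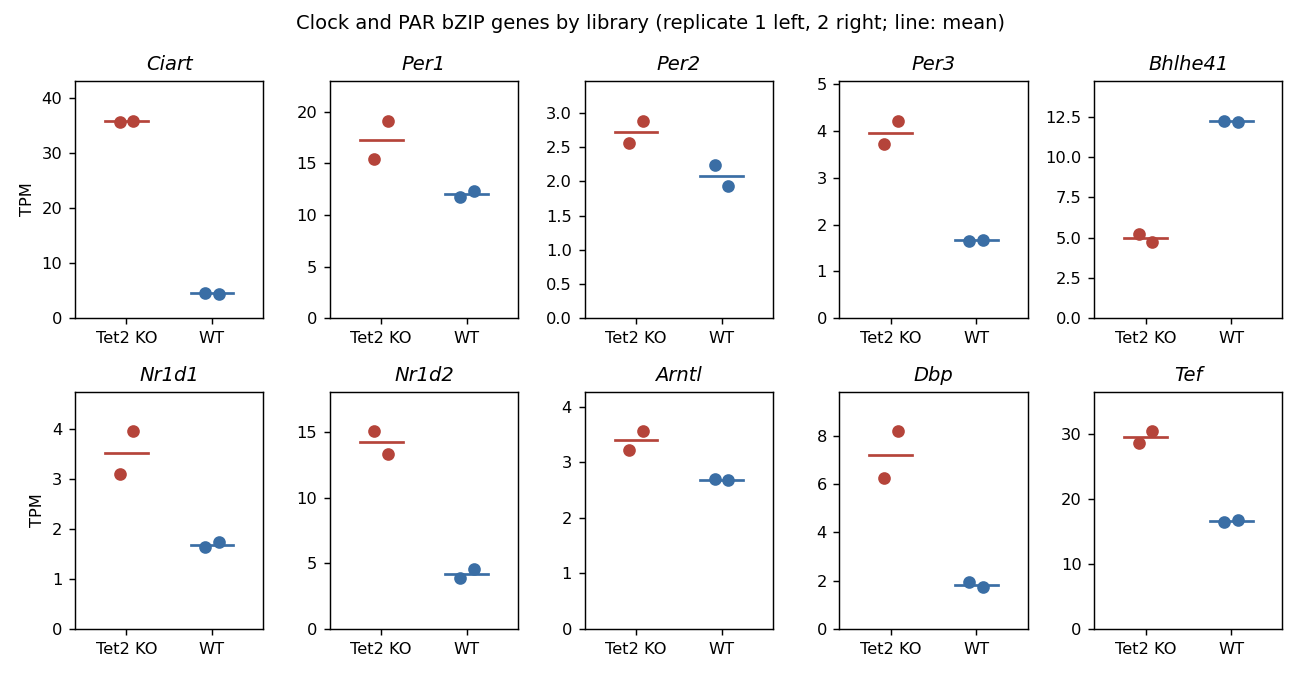
TPM of the 10 circadian clock and PAR bZIP genes in each library (points, replicate 1 left and replicate 2 right), with Tet2 KO left of WT and the mean as a line; each panel has its own axis from 0. The groups do not overlap in any panel, Bhlhe41 alone is lower in Tet2 KO, and the Tet2 KO points of Dbp, Nr1d1 and Per1 lie further apart than their WT points.

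Ciart encodes CHRONO, a repressor of CLOCK-BMAL1 that acts at E-boxes. The gene lies on chromosome 3 at 95878503 to 95882251, minus strand, in mm10. It stood at 35.67 and 35.84 TPM in Tet2 KO cells, against 4.56 and 4.44 TPM in WT. The mean was 7.95-fold higher in Tet2 KO, and the log2(TPM + 1) difference of 2.74 ranked 21 from the top among the 11452 genes tested. Relative to the all-gene median the log2 difference was 2.52. Among the 10 genes Ciart had the highest mean level in Tet2 KO and the fourth highest in WT.

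The promoter of Ciart is shown because its gene differed most and because it held 3 canonical E-boxes. The window is 300 bases long, 250 before and 50 after an annotated start, from RefSeq on GRCm38.p6, the assembly behind mm10, at chr3:95882179-95882478, minus strand. Capitals mark the E-boxes, CACGTG, a palindrome that reads alike on both strands:
Ciart: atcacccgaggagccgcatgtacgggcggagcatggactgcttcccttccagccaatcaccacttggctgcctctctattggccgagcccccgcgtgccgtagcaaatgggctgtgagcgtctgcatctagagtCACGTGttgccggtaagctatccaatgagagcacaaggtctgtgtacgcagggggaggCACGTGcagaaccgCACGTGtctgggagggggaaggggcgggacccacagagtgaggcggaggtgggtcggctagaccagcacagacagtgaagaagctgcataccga
The E-boxes began 116, 58 and 44 bases before the start. At least 1 CACGTG was found in 8.09% of the 27025 genes with a window, and 3 or more in 25 genes, or 0.0925%. A match describes these letters and not binding.

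The Per genes encode the PERIOD proteins, which with the cryptochromes form the repressive arm of the loop. Per1 (chromosome 11, 69095217 to 69109960, plus strand) stood at 15.41 and 19.15 TPM in Tet2 KO cells, against 11.79 and 12.37 TPM in WT. Per2 (chromosome 1, 91415982 to 91459324, minus strand) stood at 2.56 and 2.89 TPM in Tet2 KO cells, against 2.24 and 1.93 TPM in WT. Per3 (chromosome 4, 151003652 to 151044665, minus strand) stood at 3.71 and 4.22 TPM in Tet2 KO cells, against 1.65 and 1.67 TPM in WT. Per3 thus separated the groups by 2.39-fold in mean TPM, Per1 by 1.43-fold and Per2 by 1.31-fold. On the log2(TPM + 1) scale the differences were 0.90 for Per3, 0.48 for Per1 and 0.27 for Per2. Relative to the all-gene median they were 0.72, 0.25 and 0.10 in the same order. The gap between the nearest libraries of Per2, 2.56 TPM in Tet2 KO and 2.24 TPM in WT, was about as wide as the gap of 2.24 to 1.93 TPM within WT.

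The windows of Per3 and Per1 are shown for their different motifs. Per3 (chr4:151044616-151044915, minus strand) held 2 D-boxes, TTATGTAA in the direction of the gene, in capitals, beginning 205 and 158 bases before the start:
Per3: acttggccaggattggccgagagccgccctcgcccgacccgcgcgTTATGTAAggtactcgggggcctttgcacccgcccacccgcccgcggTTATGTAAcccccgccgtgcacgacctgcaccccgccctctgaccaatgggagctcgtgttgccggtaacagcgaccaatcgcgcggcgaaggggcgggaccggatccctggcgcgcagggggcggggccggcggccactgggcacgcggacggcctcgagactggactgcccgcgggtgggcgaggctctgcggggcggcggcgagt
Of the 27025 genes, 1.11% held a TTATGTAA on either strand and 7 genes, or 0.0259%, held 2 or more. The palindromic form TTACGTAA was found in 0.126% of genes and in none of the clock and PAR bZIP windows. Of the 2 annotated Per1 starts, the upstream one (chr11:69098699-69098998, plus strand) held 1 E-box, in capitals, beginning 166 bases before the start:
Per1: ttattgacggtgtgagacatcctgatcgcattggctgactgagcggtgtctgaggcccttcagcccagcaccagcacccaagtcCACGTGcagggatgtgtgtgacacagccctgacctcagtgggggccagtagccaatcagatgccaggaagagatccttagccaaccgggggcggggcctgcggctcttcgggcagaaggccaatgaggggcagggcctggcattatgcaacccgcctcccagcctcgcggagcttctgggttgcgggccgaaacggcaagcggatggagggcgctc
The downstream Per1 window (chr11:69099902-69100201) held no match to the motifs searched. Per2 had no entry in the promoter table.

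Bhlhe41 encodes DEC2, a basic helix-loop-helix repressor that binds E-boxes and is itself a clock target. It lies on chromosome 6 at 145858243 to 145865558, minus strand. It stood at 5.21 and 4.76 TPM in Tet2 KO cells, against 12.28 and 12.19 TPM in WT. Both Tet2 KO libraries lay far below both WT libraries, and the mean was 2.45-fold lower in Tet2 KO. The log2 difference of -1.15 ranked 253 from the bottom among the genes tested, and was -1.36 relative to the all-gene median. Its level was the second highest of the 10 genes in WT and the sixth in Tet2 KO. The annotated locus Gm43909 covers 1280 of its 6720 exonic bases on the opposite strand. The library kit was stranded, but whether counting used strand is not given in the sources used here, so the Bhlhe41 value is uncertain to that extent.

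The Bhlhe41 window (chr6:145865371-145865670, minus strand) is shown because its gene went the other way while its promoter also held an E-box, in capitals, 153 bases before the start:
Bhlhe41: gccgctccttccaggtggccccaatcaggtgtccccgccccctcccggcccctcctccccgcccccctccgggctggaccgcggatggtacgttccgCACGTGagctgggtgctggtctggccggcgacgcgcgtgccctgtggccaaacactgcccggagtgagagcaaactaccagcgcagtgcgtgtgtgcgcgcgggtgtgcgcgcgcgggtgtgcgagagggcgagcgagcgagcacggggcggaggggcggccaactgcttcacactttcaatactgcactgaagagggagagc
An E-box in the window therefore occurred in the gene lower in Tet2 KO as well as in Ciart, Tef and Per1, which were higher.

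Nr1d1 and Nr1d2 encode REV-ERB alpha and beta, haem-binding receptors that repress transcription with the NCoR complex. Nr1d2 (chromosome 14, 18204054 to 18239127, minus strand) stood at 15.06 and 13.35 TPM in Tet2 KO cells, against 3.85 and 4.57 TPM in WT, 3.37-fold higher in mean TPM. Nr1d1 (chromosome 11, 98767932 to 98775333, minus strand) stood at 3.09 and 3.95 TPM in Tet2 KO cells, against 1.63 and 1.73 TPM in WT, 2.10-fold higher. The log2(TPM + 1) differences were 1.55 for Nr1d2 and 0.75 for Nr1d1, and 1.33 and 0.57 relative to the all-gene median. Nr1d2 was thus the more abundant receptor transcript in every library, per length, and the one further apart between genotypes. Nr1d1 shares 263 of its 3077 exonic bases with Thra, a thyroid hormone receptor gene on the opposite strand. Thra stood at 14.13 and 13.57 TPM in Tet2 KO cells, against 9.81 and 10.53 TPM in WT, so reads of the pair cannot be told apart where they overlap unless strand was used.

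The Nr1d1 window (chr11:98775328-98775627, minus strand) held 1 E-box variant, CACGTT, read on the opposite strand and therefore written AACGTG, beginning 28 bases before the start. The variant was found in 5.44% of genes on either strand. No 2 matches in the windows of these genes overlapped. The Nr1d2 window held no match.

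Arntl encodes BMAL1, the activating partner of CLOCK, and is the classical target of REV-ERB repression. The gene (chromosome 7, 113207465 to 113314126, plus strand) stood at 3.23 and 3.56 TPM in Tet2 KO cells, against 2.7 and 2.68 TPM in WT. The mean was 1.26-fold higher in Tet2 KO, with a log2 difference of 0.25, close to the median of all genes. Relative to that median the difference was 0.07, and with quantile normalization it was -0.0199, so its direction rests on the scale. An antisense locus covers 33 of its 7523 exonic bases.

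Of the 2 annotated Arntl starts, whose windows overlap, the downstream one is shown (chr7:113207261-113207560, plus strand). It held 1 core of the element bound by REV-ERB and ROR receptors, TAGGTCA in the direction of the gene, in capitals, at bases 31 to 37 after the start:
Arntl: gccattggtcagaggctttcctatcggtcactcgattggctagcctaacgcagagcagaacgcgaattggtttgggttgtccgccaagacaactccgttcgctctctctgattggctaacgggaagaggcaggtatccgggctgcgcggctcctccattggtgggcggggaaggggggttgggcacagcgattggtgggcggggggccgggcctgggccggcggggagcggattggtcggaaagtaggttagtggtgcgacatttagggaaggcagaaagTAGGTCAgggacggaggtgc
The core was found in 2.97% of genes on either strand. The upstream window, which ends before it, held no match.

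Dbp and Tef encode PAR bZIP activators that bind D-boxes. Dbp (chromosome 7, 45705088 to 45710203, plus strand) stood at 6.25 and 8.19 TPM in Tet2 KO cells, against 1.94 and 1.73 TPM in WT. Its mean was 3.93-fold higher in Tet2 KO, with a log2 difference of 1.53, or 1.34 relative to the all-gene median. Tef (chromosome 15, 81802421 to 81826863, plus strand) stood at 28.58 and 30.37 TPM in Tet2 KO cells, against 16.43 and 16.78 TPM in WT. Its mean was 1.78-fold higher, with log2 differences of 0.79 and, relative to the median, 0.56. Tef was the most abundant of the 10 genes in WT and the second in Tet2 KO. The relative separation was wider for Dbp, from a low WT level, and the absolute one for Tef. Dbp shares 539 of its 2993 exonic bases with Sphk2, a sphingosine kinase gene on the opposite strand, which stood at 36.42 and 38.41 TPM in Tet2 KO cells, against 35.85 and 37.12 TPM in WT. Reads of Dbp and Sphk2 cannot be told apart where they overlap unless strand was used, so the Dbp value is uncertain to that extent. Tef shares 193 of 7867 exonic bases with an antisense locus.

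Both Tef starts held an E-box, the upstream one beginning 127 bases and the downstream one 138 bases before its start. The upstream window (chr15:81802423-81802722, plus strand) is shown with the E-box in capitals, since Tef was the PAR bZIP gene with the most RNA:
Tef: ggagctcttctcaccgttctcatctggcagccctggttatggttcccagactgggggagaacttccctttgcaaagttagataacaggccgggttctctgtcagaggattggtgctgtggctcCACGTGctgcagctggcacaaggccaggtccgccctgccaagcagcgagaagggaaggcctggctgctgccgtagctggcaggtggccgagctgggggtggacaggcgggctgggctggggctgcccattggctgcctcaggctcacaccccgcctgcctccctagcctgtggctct
The Dbp window (chr7:45704997-45705296) held no match to the motifs searched. In all, of the 9 genes with a window, 4 held a canonical E-box, 1 held only the variant, 1 held D-boxes, 1 held the REV-ERB and ROR core and 2 held none. No window of these genes held TGACGTCA, the cAMP response element, which 2.03% of all genes held.

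**Figure D2:**
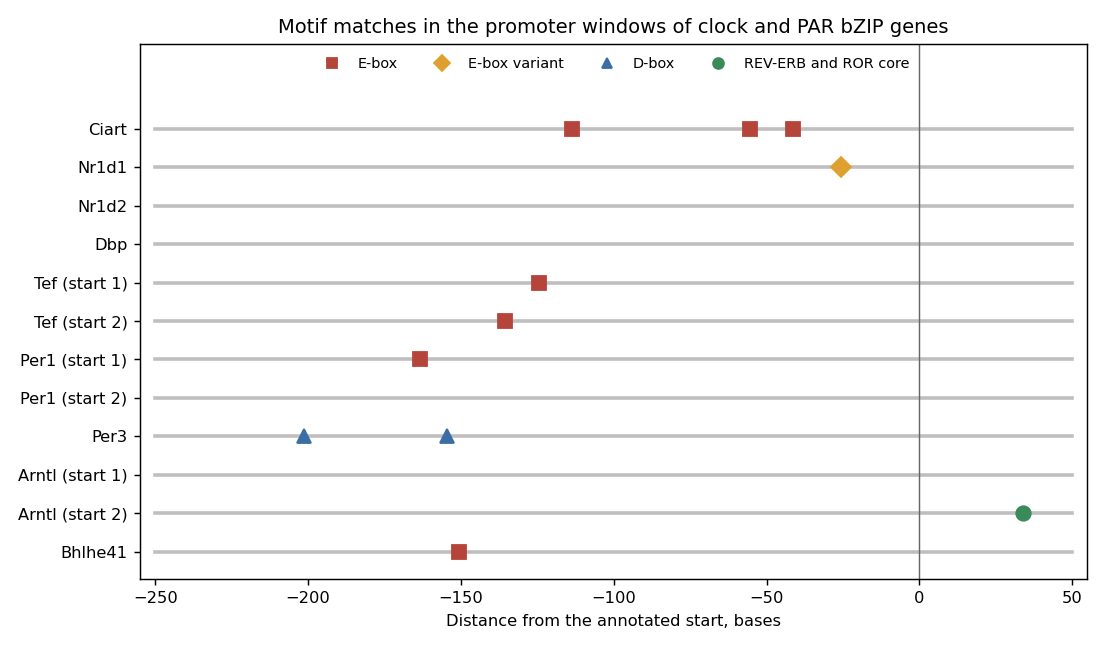
Positions of the motif matches in the 300-base promoter windows of the clock and PAR bZIP genes, in bases from the annotated start at 0; grey lines are the windows and symbols the match centres. Ciart holds 3 E-boxes within 116 bases of its start, Per3 holds 2 D-boxes, and Nr1d2 and Dbp hold none of the motifs searched.

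The genes also varied within a genotype. Replicate 2 of Tet2 KO lay above replicate 1 for 8 of the 10 genes, the exceptions being Nr1d2 and Bhlhe41, against 59.8% of all genes tested. The ratio of replicate 2 to replicate 1 was 1.31 for Dbp, 1.28 for Nr1d1 and 1.24 for Per1 in Tet2 KO. It was 1.005 for Ciart and 0.886 for Nr1d2. In WT, replicate 2 lay above replicate 1 for 5 of the 10 genes, against 59.4% of all genes tested, and the ratio spanned 0.862 for Per2 to 1.19 for Nr1d2. With 2 libraries a genotype, such order is a description of these libraries.

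Shares within a library do not depend on how libraries are scaled to each other. Of the summed TPM of Ciart, the Per genes and the Cry genes, Ciart took 40.1 and 37.5% in Tet2 KO and 11.9 and 11.2% in WT. Within this sum, which leaves out the more abundant repressor gene Bhlhe40, Ciart was the largest in Tet2 KO. Cry1, at 13.02 and 13.9 TPM, was the largest in WT. Per3 took 17.1 and 16.1% of the Per sum in Tet2 KO and 10.5 and 10.5% in WT, while Per1 took most of it in all 4 libraries. Nr1d2 took 82.98 and 77.2% of the REV-ERB sum in Tet2 KO and 70.3 and 72.5% in WT. Dbp took 17.3 and 20.4% of the PAR bZIP sum of Dbp, Tef and Hlf in Tet2 KO and 10.4 and 9.22% in WT. Bhlhe41 took 1.72 and 1.55% of the sum with its paralogue Bhlhe40 in Tet2 KO and 5.5 and 5.18% in WT. None of these shares overlapped between the genotypes. The TPM of most single genes did not overlap either, with 62.4% of all genes tested higher in both Tet2 KO libraries and 24.4% lower in both.

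Ratios between clock factors differed as well. The sum of Dbp, Tef and Hlf was 0.567 and 0.595 times the level of Nfil3 in Tet2 KO cells, against 0.273 and 0.282 times in WT. The REV-ERB sum was 5.62 and 4.86 times the Arntl level in Tet2 KO cells, against 2.03 and 2.35 times in WT. Dbp over Arntl was 1.94 and 2.3 in Tet2 KO cells, against 0.719 and 0.646 in WT. The REV-ERB sum over Rora, the gene of an opposing activator, was 8.56 and 8.16 in Tet2 KO cells, against 6.16 and 7.78 in WT, a narrower gap in which the WT libraries lay further apart than the genotypes at their nearest.

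**Figure D3:**
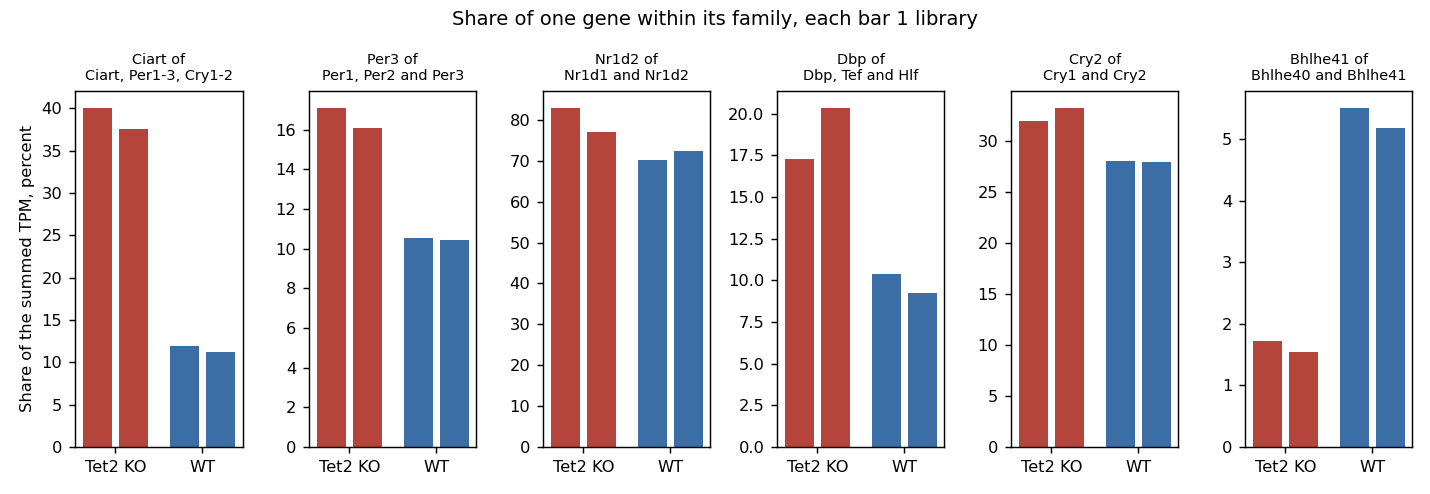
Share of 1 gene in the summed TPM of its family, in percent, with 1 bar per library and Tet2 KO left of WT; each panel has its own axis from 0. Ciart, Per3, Nr1d2, Dbp and Cry2 take larger shares in both Tet2 KO libraries, and Bhlhe41 a smaller one, at 1.72 and 1.55% in Tet2 KO and 5.5 and 5.18% in WT.

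The other core clock genes, a list also drawn up with earlier results of these data known, were tested in the limma fit across all genes. Of 11 such genes 7 were tested, of which 6 rose, 0 fell and 1, Nfil3, did not pass, with a median log2 difference of 0.67 beside 0.23 over all genes. Over all genes tested 54.4% were called higher and 19.5% lower, and 2 of the 6, Rora and Hlf, entered the fit only through Tet2 KO, so their rise is partly set by the filter. Both cryptochrome repressor genes rose. Cry1 stood at 21.56 and 22.29 TPM in Tet2 KO cells, against 13.02 and 13.9 TPM in WT (log2 difference 0.67, SE 0.0701, limma adjusted p = 3.01e-07). Cry2 stood at 10.11 and 11.08 TPM in Tet2 KO cells, against 5.06 and 5.37 TPM in WT (0.90, SE 0.0907, limma adjusted p = 1.79e-07). Bhlhe40, which encodes the repressor DEC1, rose to 297.42 and 302.82 TPM in Tet2 KO cells, against 210.77 and 223.17 TPM in WT (0.47, SE 0.042, limma adjusted p = 4.54e-08). The DEC genes therefore lay on opposite sides, the abundant Bhlhe40 higher in Tet2 KO and the scarcer Bhlhe41 lower.

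Rora and the PAR bZIP gene Hlf rose as well. Both were below 1 TPM in WT, so that they were tested only through Tet2 KO, where they are high. Rora stood at 2.12 TPM in both Tet2 KO libraries, against 0.89 and 0.81 TPM in WT (log2 difference 0.75, SE 0.123, limma adjusted p = 3.96e-05). Hlf stood at 1.28 and 1.68 TPM in Tet2 KO cells, against 0.3 and 0.26 TPM in WT (0.95, SE 0.139, limma adjusted p = 1.21e-05). All 3 PAR bZIP genes stood higher in Tet2 KO, a description only, since Dbp and Tef were chosen with this contrast known. Nfil3, the repressor at the same element, was at 63.7 and 67.6 TPM in Tet2 KO cells, against 68.46 and 66.64 TPM in WT (-0.04, SE 0.0536, limma adjusted p = 0.499), and these groups overlap. Relative to the all-gene median Nfil3 was lower in Tet2 KO, at -0.28 (limma adjusted p = 6.52e-04).

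Clock, which encodes the partner of BMAL1, was at 9.05 and 8.45 TPM in Tet2 KO cells, against 7.13 and 7.2 TPM in WT (log2 difference 0.26, SE 0.0873, limma adjusted p = 0.015). Relative to the all-gene median the call was lost (0.04, limma adjusted p = 0.7), and its sign turned with quantile normalization (-0.01) and spike-in scaling (-0.01). It was also lost without Tet2 KO replicate 1 (limma adjusted p = 0.0687), WT replicate 1 (0.0774) or WT replicate 2 (0.0627). Both activating partners, Clock and Arntl, therefore sat near the general shift. The other 4 core genes were not tested. Npas2, a paralogue of Clock, was at 0.38 and 0.36 TPM in Tet2 KO and 0.11 and 0.09 TPM in WT, and Arntl2 at 0.06 and 0.12 TPM in Tet2 KO and 0.33 and 0.36 TPM in WT. Rorb was listed at 0 in Tet2 KO and at 0.01 TPM in both WT libraries. Relative to the all-gene median 5 of the 7 tested genes were higher and 1, Nfil3, lower.

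**Figure D4:**
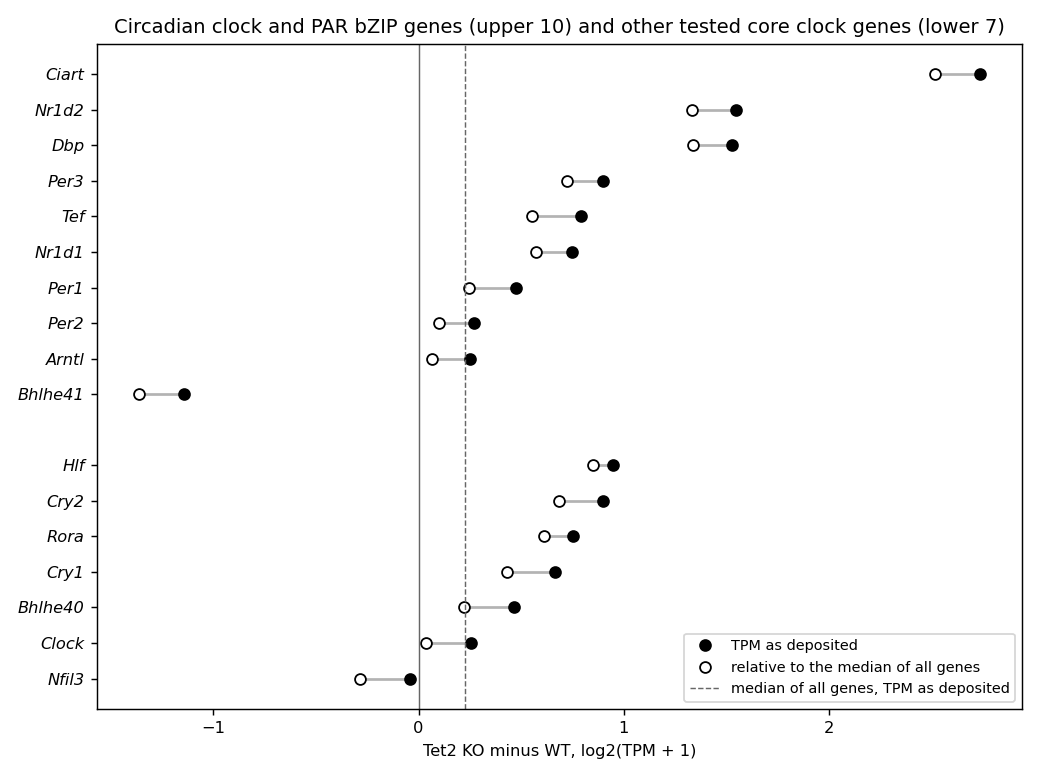
Tet2 KO minus WT differences in log2(TPM + 1) for the 10 clock and PAR bZIP genes (upper) and the 7 other tested core clock genes (lower), on the deposited scale (filled) and relative to the all-gene median (open). The dashed line is the median of all genes tested, 0.23; Ciart lies furthest right at 2.74, Bhlhe41 furthest left at -1.15, and Clock, Arntl and Per2 lie near the dashed line.

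Genes that act on clock proteins or with them mostly rose on the deposited scale, where most genes did. Of 19 kinase, ligase and protease genes 17 were tested, of which 14 rose and 1 fell (median log2 difference 0.38). After rescaling to the all-gene median 9 were higher and 2 lower. Those counts stand beside 54.4% of all genes called higher and 19.5% lower as deposited, and 33.3% higher and 34.4% lower after rescaling. Csnk1e, the gene of a PERIOD kinase, was at 81.4 ± 5.12 TPM in Tet2 KO and 44.2 ± 1.77 TPM in WT (limma adjusted p = 1.44e-09). Usp2, a rhythmically expressed deubiquitinase gene, was at 3.55 and 3.94 TPM in Tet2 KO cells, against 1.8 and 1.79 TPM in WT (limma adjusted p = 1.42e-05). The ubiquitin ligase gene Huwe1 was at 85.5 ± 3.97 TPM in Tet2 KO and 51.9 ± 1.15 TPM in WT (limma adjusted p = 6.51e-09).

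All 21 corepressor and coactivator genes were tested, and 18 rose and 0 fell (median log2 difference 0.41), on a scale where 54.4% of all genes were called higher and 19.5% lower. With the libraries rescaled 11 were higher and 3 lower, beside 33.3% and 34.4% of all genes. Ncor1, the corepressor that REV-ERB receptors recruit, was at 108.7 ± 2.38 TPM in Tet2 KO and 54.8 ± 1.12 TPM in WT (limma adjusted p = 5.33e-11). Its partner gene Tbl1x was at 70.97 ± 1.29 TPM in Tet2 KO and 33.9 ± 1.58 TPM in WT (limma adjusted p = 9.33e-11). Hdac3, the deacetylase gene of the same complex, did not pass, at 48 and 49.5 TPM in Tet2 KO cells, against 51.1 and 53.89 TPM in WT (limma adjusted p = 0.102). On the rescaled libraries Hdac3 was called lower (log2 difference -0.35); it was named after its values were seen. The nuclear receptor corepressor gene Nrip1 was at 20.8 ± 0.403 TPM in Tet2 KO and 7.99 ± 0.0566 TPM in WT (limma adjusted p = 2.39e-10). Kdm5a, a histone demethylase gene whose product works with CLOCK-BMAL1, was at 31.6 ± 0.262 TPM in Tet2 KO and 16.6 ± 0.495 TPM in WT (limma adjusted p = 2.68e-09).

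Genes known as clock outputs moved both ways. Of 20 output genes 17 were tested, of which 13 rose and 4 fell (median log2 difference 0.55), and 10 were higher and 4 lower relative to the all-gene median. Over all genes 54.4% were called higher and 19.5% lower as deposited, and 33.3% higher and 34.4% lower after rescaling. Hlf, which is also on the output list, entered the fit only through Tet2 KO. Alas1, which encodes the first enzyme of haem synthesis, fell to 188.94 and 191.11 TPM in Tet2 KO cells, against 580.9 and 572.7 TPM in WT (log2 difference -1.60, SE 0.0377, limma adjusted p = 3.06e-15). Klf10, the gene of a Krüppel-like factor, rose to 39.13 and 42.86 TPM in Tet2 KO cells, against 15.65 and 17.16 TPM in WT (limma adjusted p = 8.7e-11). Its relative Klf9 rose to 16.48 and 16.91 TPM in Tet2 KO cells, against 8.29 and 7.23 TPM in WT (limma adjusted p = 1.52e-08). Herpud1, also an endoplasmic reticulum stress gene, rose to 160.37 and 163.43 TPM in Tet2 KO cells, against 66.93 and 68.93 TPM in WT (limma adjusted p = 1.07e-12).

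The list of genes known to be repressed by REV-ERB showed no common direction. Of 14 genes 8 were tested, of which 4 rose and 2 fell (median log2 difference 0.11), with 3 higher, 4 lower and a median of -0.11 relative to the all-gene median. These counts, too, stand beside 54.4% higher and 19.5% lower over all genes, and 33.3% and 34.4% after rescaling. Il6, the interleukin-6 gene, rose to 67.54 and 62.31 TPM in Tet2 KO cells, against 27.24 and 27.54 TPM in WT (limma adjusted p = 2.32e-11). The toll-like receptor gene Tlr4 rose to 50.91 and 43.14 TPM in Tet2 KO cells, against 29.13 and 31.16 TPM in WT (limma adjusted p = 1.09e-05). Cry1, given above, rose.

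A list of glucocorticoid-responsive genes and of CREB, early response and stress signalling genes was tested in full, and every gene on it was called as deposited. Of the 22 genes 20 rose and 2 fell (median log2 difference 0.59), and 17 were higher and 2 lower relative to the all-gene median. The shares over all genes were 54.4% higher and 19.5% lower as deposited, and 33.3% higher and 34.4% lower after rescaling. Immediate early genes were among those that rose: Fos stood at 387.92 and 377.73 TPM in Tet2 KO cells, against 150.98 and 159.07 TPM in WT (limma adjusted p = 1.52e-13). Nr4a1, a nuclear receptor gene of the same early class, stood at 35.94 and 38.85 TPM in Tet2 KO cells, against 17.15 and 18.23 TPM in WT (limma adjusted p = 6.11e-10). The glucocorticoid-induced kinase gene Sgk1 fell to 20.43 and 19.28 TPM in Tet2 KO cells, against 82.22 and 80.88 TPM in WT (log2 difference -1.99, limma adjusted p = 4.01e-14). Zbtb16, another glucocorticoid-induced gene, rose to 2.42 and 2.48 TPM in Tet2 KO cells, against 0.14 and 0.19 TPM in WT (limma adjusted p = 1.52e-08), and was tested only through Tet2 KO.

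**Figure D5:**
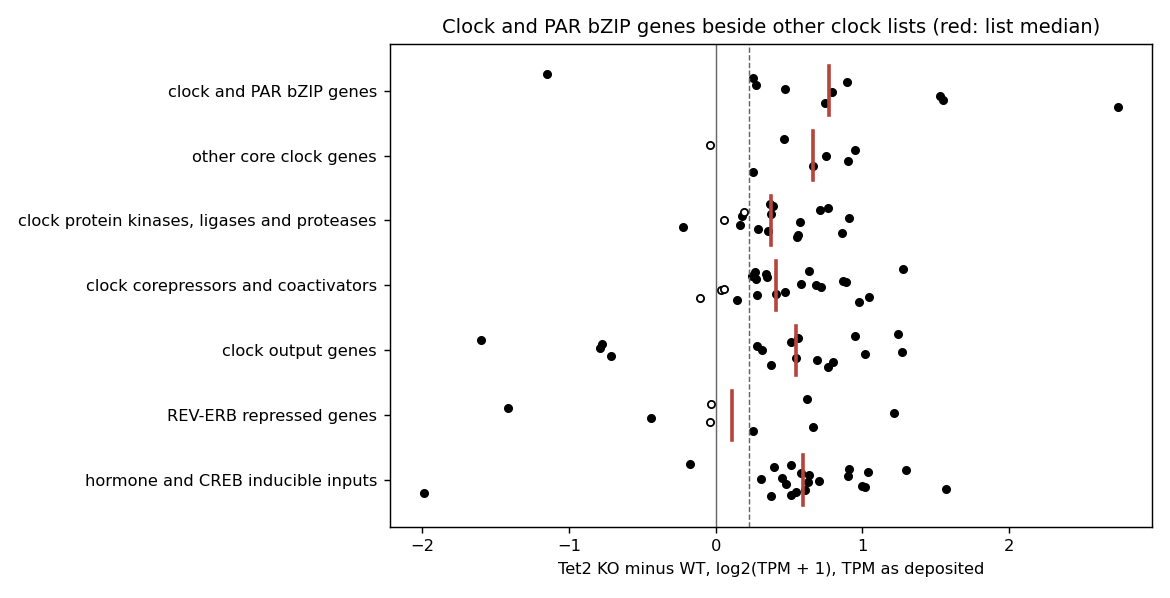
Tet2 KO minus WT differences in log2(TPM + 1) on the deposited scale for the clock and PAR bZIP genes and 6 lists of other clock-related genes; each point is a tested gene, filled where the limma adjusted p was under 0.05, red bars are list medians and the dashed line is the median of all genes tested. The medians run from 0.11 for genes repressed by REV-ERB to 0.77 for the clock and PAR bZIP genes, which were chosen with this contrast known.

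Among the other tested genes, predicted genes left out, those nearest to Dbp in their profile over the 4 libraries were Rundc3b, Rdm1, Tmem9, Chst15 and Mapk12, by Euclidean distance between centred log2(TPM + 1) values. Rundc3b was the nearest, at a distance of 0.0321, with 3.81 and 5.09 TPM in Tet2 KO cells, against 0.97 and 0.86 TPM in WT. The other 4 lay at distances of 0.115 to 0.139. Rundc3b, Chst15 and Mapk12 were below 1 TPM in both WT libraries, so they were tested only through Tet2 KO.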

How the data were processed

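QIAzol was used for RNA and a KAPA stranded mRNA kit for the libraries, per the labels' protocols. STAR, RSEM and the mm10 build are named, without versions, in the submitters' processing notes; the sources used here do not give annotation or filters. The authors deposited TPM per gene in a table of 24589 rows. The 92 spike-in rows were left out. They took 5.48 and 5.33% of the TPM in Tet2 KO and 4.38 and 4.43% in WT.

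The genotype comparison ran on log2(TPM + 1) with limma 3.58.1 and statmod 1.5.0, under R 4.3.3. The fit used limma's trend and robust options and took genes that reached 1 TPM in 2 or more libraries. P-values were two-sided and adjusted by Benjamini-Hochberg over 11452 genes, with a threshold of 0.05. The steps were tested on simulated data in which few genes changed, all of them upward, without a general shift. That test therefore does not cover the general shift in these libraries. A log2 difference understates the change of low genes; folds are ratios of mean TPM. Members and lists were chosen with earlier results of these data known. Named genes were all members, all other core clock genes, up to 4 called genes of each further list with the largest absolute log2 difference and at least 2 TPM, and the 5 genes, predicted ones aside, nearest to Dbp. Some genes that this rule names are not reported here. Gene positions came from GENCODE M21 (mm10) and promoters from RefSeq, matched by symbol. Figures were drawn with matplotlib 3.10.9.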

Additional observations from a re-analysis of the deposited data

How the results depend on the processing

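Over 14 alternatives the 10 clock and PAR bZIP genes gave 136 log2 differences, of which 135 had the sign of the deposited scale. Most of these signs could not turn. The filters, the limma options and the replicate block left the differences as they were. The genotypes overlapped for none of the 10 genes, so another pseudocount or a left-out library could not turn a sign. Only median-ratio, quantile and spike-in scaling could. Arntl turned to -0.0199 with quantile normalization, under which Per1 (0.20), Per2 and Arntl were not called. With a filter of 5 TPM only 6 of the 10 were tested, and all 6 were called, beside 7402 of the 9610 genes tested under that filter. Of the other named genes, Clock turned to -0.012 with quantile normalization and -0.0077 with spike-in scaling, and Nfil3, never called higher, spanned -0.0833 to 0.0012 over the fits that left out 1 library. Nfil3 became a lower call with median-ratio, quantile and spike-in scaling. Spike-in scaling brought the called kinase, ligase and protease genes to 9, in place of 15. Called genes overall were 8463, of which 73.6% were higher; with median-ratio scaling they were 7751, of which 49.2% were higher. Leaving out 1 library gave 7342 to 8286, with 8 to 10 of the clock and PAR bZIP genes and 5 to 6 other core clock genes. Where an arm then held 1 library, that library was assumed to vary like the others. The replicate numbers are not said to mark shared cultures, and same-numbered libraries did not deviate together (correlation -0.0852 over 7941 genes). With a replicate block 8390 genes were called, with Per2 and Arntl not among them and the called other core clock genes at 6 as before. Cause was not tested for any of these changes. TPM give no depth, so counting error in genes of a few TPM, such as Nr1d1, Per2 and Arntl, cannot be stated.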
